A study of Mus musculus with 42 samples.

Results

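The 10 genes described here, Stk17b, Cep76, Klhl4, Rasl11b, Smpx, Nell1, Plxdc1, Nrk, Tmem255a and F2r, were chosen by their high level in Purkinje arrays against Stellate/Basket arrays from postnatal day 14 (P14) on, in an earlier analysis of the same arrays. They are 10 of 17485 genes with a tested probe set. Every probe set that the array annotation gives to these symbols was taken, 22 in all, and 21 of them passed the filter on low values, which asked for more than log2 5 in 3 arrays or more. A gene is represented by its leading probe set, the one with the highest mean over the arrays. The cells came from the cerebellum of mice of strain CB6-Tg(Gad1-EGFP)G42Zjh/J, all labelled male, whose Gad67-GFP bac transgene marks inhibitory neurons with green fluorescent protein. Cells of both kinds were released from slices with a protease and picked by hand for their green fluorescence and the size of the cell body, and their RNA was amplified before hybridization, which can change the measured levels. Purkinje cells were sampled at 7 ages, with 3 arrays at each of P3, P7 and P14 and 4 at each age from P21 to P56 (P21, P28, P35, P56). Stellate/Basket cells, sampled from P14 on, had 4 arrays at each of P14 and P28, 3 at P21 and 2 at each of P35 and P56. Expression was measured on Affymetrix mouse arrays of 45101 probe sets, and all values are the deposited log2 intensities, which run from 3.94 to 14.6. A level can be compared between arrays for the same probe set only. No detection calls were used, so fold changes of a probe set near log2 5 are uncertain.

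Purkinje cells are the sole output neurons of the cerebellar cortex. In the mouse their dendritic tree grows out and receives its parallel fibre and climbing fibre synapses during the first postnatal weeks. Stellate and basket cells are the inhibitory interneurons of the molecular layer that synapse onto them. The 10 genes encode proteins of unlike kinds. Stk17b and Nrk are serine/threonine kinases, the first of the death-associated protein kinase family and the second of the Ste20-like germinal centre kinases. F2r is the thrombin receptor PAR1, a G protein-coupled receptor that proteases switch on by cutting its outer end, and Plxdc1 and Tmem255a encode transmembrane proteins. Nell1 is a secreted protein with EGF-like repeats best known from bone formation. Rasl11b belongs to the Ras-like small GTPases, Klhl4 to the kelch-repeat proteins, Cep76 is a centrosomal protein that limits centriole duplication in human cells, and Smpx is a small cytoskeletal protein of striated muscle.

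Some arrays stood apart from their labels. The mean of the 10 measured of 13 Purkinje cell markers lay between 11.96 and 12.36 in the 19 Purkinje arrays from P14 on, but at 9.02, 8.47 and 6.90 in the P3 arrays and at 9.38, 9.76 and 10.02 in the P7 arrays. Kit, a receptor of molecular layer interneurons, was at 8.81 to 9.78 in the Purkinje arrays of P3 and P7, against 5.10 to 6.09 at P14. In the Stellate/Basket arrays of P56, replicates 1 and 3, the Purkinje markers had means of 11.68 and 10.14, against 7.77 to 8.79 at P14, and the 9 measured of 11 interneuron markers had means of 6.71 and 6.98, against 10.10 to 10.67 at P14. The 12 astrocyte and Bergmann glia markers had means of 10.66 and 11.06 there, against 6.64 to 8.10 at P14, and were between 9.36 and 10.39 in the Stellate/Basket arrays of P21 to P35. The main results that use the P56 arrays of Stellate/Basket cells are therefore also given without one or both of them. In pooled cells, fewer cells that express a gene and less RNA per cell cannot be told apart. The labels call the arrays biological replicates without saying which animals each came from.

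From P14 on, 9 of the 10 genes were higher in each of the 19 Purkinje arrays than in any of the 13 Stellate/Basket arrays of P14 to P35. Of all 32918 probe sets tested, 3.50% had this pattern, and as it is the pattern the genes were chosen for, it is given as a description. F2r was the exception, with 11 of the 13 Stellate/Basket arrays below the lowest Purkinje array. With the P56 arrays included, 5 genes kept the full separation, Stk17b, Cep76, Nell1, Plxdc1 and Nrk, a pattern that 1.62% of probe sets showed. The log2 difference averaged over the 5 shared ages, Purkinje minus Stellate/Basket, ran from 3.60 ± 0.36 (SE) for F2r to 5.07 ± 0.19 for Stk17b, with a median of 4.60 over the 10 genes against 0.01 over all probe sets. Without the P56 arrays of both cell types, an alternative chosen after the data were seen, the difference was larger for each of the 10 genes. It then ran from 4.24 ± 0.39 for F2r to 5.66 ± 0.18 for Stk17b, with a median of 5.15. Stk17b, Cep76, Klhl4 and Rasl11b held, with P56 included, the first 4 places among the 17485 genes. Tmem255a was at place 23 and F2r at place 46. In this comparison 5.58% of probe sets were called higher in Purkinje cells, at an adjusted p under 0.05 and a log2 difference of at least 1.

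**Figure D1:**
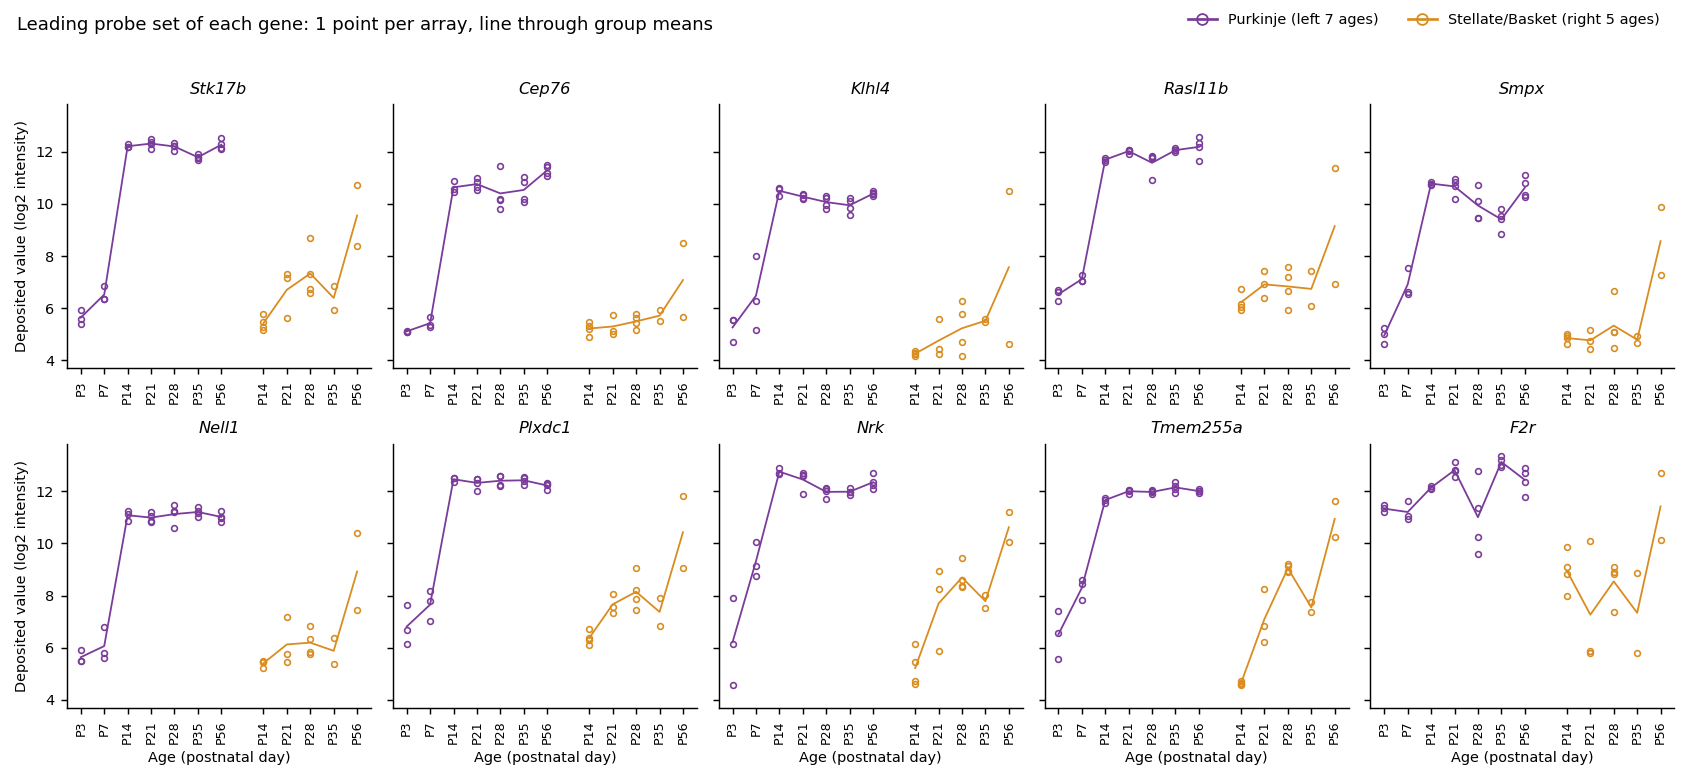
Deposited log2 intensity (vertical axis) of the leading probe set of each gene by age, with Purkinje arrays on the left of each panel and Stellate/Basket arrays on the right, 1 point per array and a line through the group means. 9 panels step up between P7 and P14 in Purkinje cells, while F2r is already at 10.95 to 11.61 at P3 and P7. In every panel the Stellate/Basket array with the highest value is 1 of the 2 from P56.

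The order of the genes changed with age. At P14, Nrk had the largest difference of all genes, 7.53, followed by Tmem255a at 7.02, with Stk17b in place 4 at 6.78. At P21, Smpx was in place 1 at 5.90. By P28 the difference of Nrk was 3.28 and that of Tmem255a 2.93, in places 69 and 102, while Nell1 stood in place 4 at 4.93. F2r was in place 1 at P35, at 5.78, but in place 129 at P14, at 3.19. At P56 the differences ran from 1.02 for F2r to 4.20 for Cep76, and Cep76, in place 3, was the only one of the 10 genes among the first 80 at that age. Several genes were chosen from their place at a single age, so these places are descriptions too.

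The genes lie on chromosomes 1 (Stk17b), 5 (Rasl11b), 7 (Nell1), 11 (Plxdc1), 13 (F2r), 18 (Cep76) and X (Klhl4, Smpx, Nrk and Tmem255a), by the RefSeq annotation of build GRCm38.p6. Because 9 of them step up together between P7 and P14, windows of 250 bases from RefSeq's table of promoters were read for what they share, and 8 of the 10 genes had a window there. For 5 of them, Klhl4, Rasl11b, Smpx, Nell1 and F2r, the window ends at the base before the annotated gene. The window of Stk17b reaches 22 bases into the gene and that of Tmem255a 15 bases, and 199 of the 250 bases of the Nrk window lie inside the gene, so it is not the sequence before the annotated start. Their base composition differed widely. The windows of Rasl11b (chr5:74195076-74195325, plus strand) and Nell1 (chr7:49975100-49975349, plus strand) were 74% and 72% G and C, with 30 and 22 CpG pairs. Those of Klhl4 (chrX:114474083-114474332, plus strand) and Smpx (chrX:157698723-157698972, plus strand) were 47.6% and 42.8% G and C, with 1 and 4 CpG pairs. The medians over 32851 windows were 52.4% and 6 CpG pairs. The Nrk window had the highest share of the 8, 76.4%. These 4 windows, all directly before their gene, are shown as those with the highest and the lowest share of G and C among the 5 such windows, 5′ to 3′ toward the start site. Capitals mark matches, on either strand, to the GC box GGGCGG, the CCAAT box CCAAT or the nuclear receptor half-site AGGTCA.
Rasl11b: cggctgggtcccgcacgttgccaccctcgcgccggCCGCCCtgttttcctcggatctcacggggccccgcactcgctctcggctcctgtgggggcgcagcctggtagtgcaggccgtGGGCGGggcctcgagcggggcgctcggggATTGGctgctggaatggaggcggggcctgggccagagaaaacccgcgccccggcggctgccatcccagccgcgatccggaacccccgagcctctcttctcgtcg
Nell1: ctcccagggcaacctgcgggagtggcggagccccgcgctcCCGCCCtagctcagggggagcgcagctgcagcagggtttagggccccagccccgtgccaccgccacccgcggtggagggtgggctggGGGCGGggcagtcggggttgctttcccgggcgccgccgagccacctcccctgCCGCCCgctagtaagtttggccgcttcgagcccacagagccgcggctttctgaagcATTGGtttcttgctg
Klhl4: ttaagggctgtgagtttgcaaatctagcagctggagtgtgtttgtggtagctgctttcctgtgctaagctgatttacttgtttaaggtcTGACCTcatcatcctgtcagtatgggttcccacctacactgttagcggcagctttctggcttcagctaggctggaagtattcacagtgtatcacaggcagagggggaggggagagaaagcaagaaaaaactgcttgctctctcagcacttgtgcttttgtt
Smpx: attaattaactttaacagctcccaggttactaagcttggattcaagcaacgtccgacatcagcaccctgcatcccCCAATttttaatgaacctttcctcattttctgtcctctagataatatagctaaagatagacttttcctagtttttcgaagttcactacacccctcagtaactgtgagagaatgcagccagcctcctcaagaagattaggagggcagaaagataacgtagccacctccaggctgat
GGGCGG was found in the windows of Stk17b, Rasl11b, Nell1, Nrk and F2r and in 32.7% of all windows. CCAAT was found in 6 of the 8 windows, the exceptions being Klhl4 and F2r, and in 33.8% of all windows. AGGTCA, the half-site that the Purkinje cell nuclear receptor RORA is known to bind, occurred in the window of Klhl4 alone among the 8 and in 14.0% of all windows. The E-box CACGTG occurred in the window of Stk17b alone among the 8 and in 6.02% of all windows, and the TATA box TATAAA in none of the 8 and in 12.4%. Without the Nrk window, GGGCGG was found in 4 of 7 and CCAAT in 5 of 7. None of the 5 motifs was thus found in all 8 windows. A match is a string of letters and not a measured site.

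Before P14 the 2 kinases differed from each other on their leading probe sets. Stk17b (1450997_at) was at 5.58, 5.40 and 5.94 in the P3 arrays and at 6.34, 6.37 and 6.86 in the P7 arrays. It was at 12.28, 12.17 and 12.17 in the P14 arrays. The change of 5.68 ± 0.43 (SE) between P7 and P14 was the largest of the 10 genes, and only 13.6% of its rise between P3 and the plateau was present at P7. The plateau is the mean of the 5 Purkinje age means from P14 to P56. Nrk (1450079_at) was at 7.92, 6.13 and 4.59 in the P3 arrays, at 8.76, 9.12 and 10.07 in the P7 arrays and at 12.67, 12.89 and 12.69 in the P14 arrays. Its P3 arrays were spread over more than 3 log2 units, and 51.0% of its rise was present at P7, the largest share among the leading probe sets of the 10 genes. On Nrk 1450078_at and 1436399_s_at that share was 9.67% and 13.4%.

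Among the genes of surface and secreted proteins, Tmem255a was early on its leading probe set alone, Plxdc1 and Nell1 later, and F2r was high throughout. Tmem255a (1436948_a_at) was at 7.41, 6.56 and 5.57 at P3, at 8.60, 7.84 and 8.44 at P7 and at 11.67, 11.76 and 11.56 at P14. The 3 ages did not overlap, and 32.7% of the rise was present at P7. On 1437137_at, 1439006_x_at and 1456596_at that share was 1.66%, 13.7% and 5.82%. Plxdc1 (1424902_at) was at 7.64, 6.67 and 6.13 at P3, at 7.02, 7.78 and 8.16 at P7 and at 12.49, 12.37 and 12.52 at P14. Its P3 and P7 arrays overlapped, and the change between P7 and P14 was 4.81 ± 0.43. Nell1 (1433787_at) was at 5.48 to 5.93 at P3, at 5.62 to 6.79 at P7 and at 10.86 to 11.25 at P14, with 7.76% of its rise present at P7. F2r (1437308_s_at) was at 11.46, 11.34 and 11.20 at P3 and at 10.95, 11.05 and 11.61 at P7. All 6 lay above the lowest of the later Purkinje arrays, a P28 array at 9.61, but below the P14 arrays, at 12.07 to 12.21. The change of F2r between P7 and P14 was 0.94 ± 0.82, smaller than in the other 9 genes. On its second probe set, 1450852_s_at, that change was 1.28 ± 0.86. There the P14 arrays were at 10.23 to 10.44, against 8.71 to 9.45 at P3 and P7.

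The intracellular proteins showed the same step. Cep76 (1437209_at) was at 5.14, 5.10 and 5.10 at P3, at 5.27, 5.36 and 5.65 at P7 and at 10.88, 10.56 and 10.46 at P14, with 5.60% of its rise present at P7, the smallest share of the 9 genes with a step. Rasl11b (1423854_a_at) was at 6.28 to 6.71 at P3, at 7.03 to 7.26 at P7 and at 11.62 to 11.77 at P14. Klhl4 (1439078_at) was at 5.54, 5.56 and 4.69 at P3 and at 8.02, 5.15 and 6.27 at P7, where the arrays were spread over almost 3 log2 units, and at 10.31 to 10.62 at P14. Smpx (1418095_at) was at 5.23, 5.03 and 4.62 at P3, at 6.64, 6.53 and 7.56 at P7 and at 10.74, 10.84 and 10.75 at P14, with 36.6% of its rise present at P7.

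With onset defined as the first age whose mean lay within 1 log2 unit of the plateau, 9 of the 10 genes had their onset at P14. In these 9 the lowest of the 19 Purkinje arrays from P14 on lay above the highest of the 6 arrays of P3 and P7, by 1.28 for Smpx to 4.81 for Stk17b. The same separation was seen in 5.47% of all probe sets, and between P7 and P14 alone 5.09% were called higher. For F2r the P3 mean was 0.97 below the plateau, so its onset at P3 rests on a margin close to the limit. Its onset was at P14 on 1450852_s_at, with the arrays quantile normalized, or with the mean of its probe sets. The same held when the P3 array of replicate 1, either of the P28 arrays of replicates 3 and 4, or the P56 array of replicate 3 was left out. Between the P7 and the P14 arrays, 8 of the 10 measured Purkinje markers were called higher at P14 and 0 lower (median 2.21), and 7 of the 9 measured interneuron markers were called lower and 2 higher (median -2.77). The part of other cells in the P3 and P7 arrays in this step was not tested. The P14 arrays entered the choice of the genes, and the onset is a description.

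**Figure D2:**
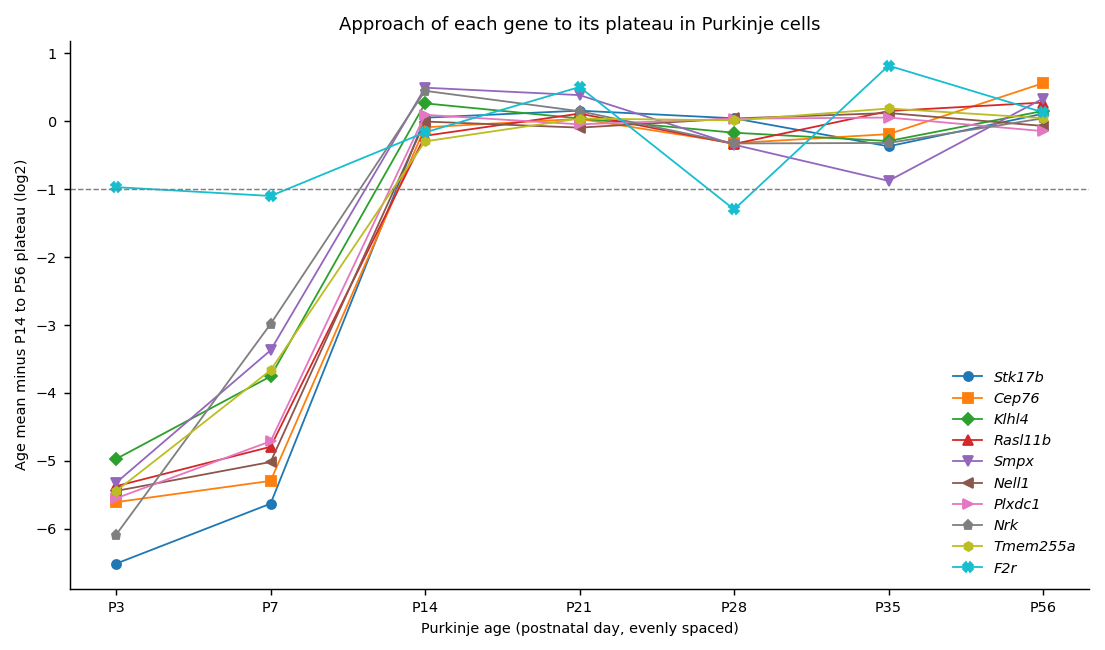
Mean of each Purkinje age minus the P14 to P56 plateau of the same gene (vertical axis, log2) against age on evenly spaced positions, 1 line per gene, with a dashed line at 1 log2 unit below the plateau. 9 genes lie between 4.97 and 6.51 below their plateau at P3 and within 1 of it from P14 on. F2r lies 0.97 below at P3, and its means at P7 and P28 are below the dashed line.

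The P3 and P7 arrays did not enter the choice of the genes. The test of the change between them is not fully independent of it, as its spread came from all 12 groups. Nrk rose by 3.10 ± 0.58 (SE), an 8.58-fold difference, and Tmem255a by 1.78 ± 0.35, a 3.44-fold difference, each higher in 3 of 3 P7 arrays than in any P3 array. Both passed limma's moderated test with Benjamini-Hochberg adjustment over all 32918 probe sets (adjusted p = 0.0172 for Nrk and 0.0240 for Tmem255a). They account for 2 of the 12 probe sets called higher, 0.0365% of those tested. Each call rests on the leading probe set. On the other probe sets the change was 0.10 and 0.36 for Nrk and 0.03, 0.73 and 0.27 for Tmem255a, and none was called. The leading probe sets of the other 8 genes did not pass in the main fit. With array weights, where 154 probe sets were called, Smpx (2.24, adjusted p = 8.94e-05) and Plxdc1 (1.24, adjusted p = 0.0247) passed. In the main fit Smpx was nearest, with a difference of 1.95 ± 0.46 (adjusted p = 0.110). It also passed with 52 probe sets called when Purkinje arrays alone were fitted (adjusted p = 0.00956). In 6 of the 10 genes, Stk17b, Cep76, Rasl11b, Smpx, Nrk and Tmem255a, all P7 arrays lay above all P3 arrays, which was so for 5.49% of all probe sets. The median difference was 0.86 over the 10 genes against 0.01 over all probe sets.

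The calls at P7 rest on few arrays. Without the P3 array of replicate 2 or of replicate 3, or without the P7 array of replicate 3, neither gene passed. Without P3 replicate 3 the values were 2.29 for Nrk (adjusted p = 0.174) and 1.31 for Tmem255a (adjusted p = 0.245). Without P7 replicate 1, Nrk passed and Tmem255a did not (1.63, adjusted p = 0.0554). The Purkinje markers moved between the same arrays, and in the P3 arrays they were highest in replicate 1 and lowest in replicate 3, as were Nrk, Tmem255a, Plxdc1, Smpx and F2r. Not all of the genes had this order, as Stk17b was highest in replicate 3, at 5.94, and Klhl4 in replicate 2, at 5.56. The share of all probe sets with this order was not counted. Of the 10 markers measured, Pcp4, a calmodulin-binding peptide of Purkinje cells, was called higher at P7 (2.12 ± 0.40, adjusted p = 0.0172), and the median over the markers was 1.65. The part of the Purkinje cell share of the P3 arrays in these differences was not tested.

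From P14 on the lowest Purkinje array was at 8.83 or higher for each of the 10 genes. Between P56 and P14 no leading probe set passed the test, in either direction, with differences from -0.41 ± 0.54 (SE) for Nrk to 0.65 ± 0.38 for Cep76 and a median of 0.00, against -0.06 over all probe sets. None of the 10 had an unadjusted p under 0.05. The SE and p rest on a spread taken from all 12 groups, with the unlike Stellate/Basket P56 arrays among them. For Klhl4 the SD was 4.16 in those arrays, against 0.17 and 0.08 in the Purkinje arrays of P14 and P56. A missing call therefore does not show that a level was steady. Of all probe sets, 1.41% were called higher and 0.343% lower at P56. The age means of Nell1 from P14 to P56 spanned 0.21 log2 units, those of Plxdc1 0.24 and those of Tmem255a 0.48, and the standard deviations over the 19 arrays were 0.22, 0.17 and 0.18. Stk17b, Klhl4, Rasl11b, Nrk and Cep76 spanned 0.52 to 0.88, Smpx 1.37 and F2r 2.12. The choice of the genes used differences between cell types at these ages, and a level that was steady in Purkinje cells could have favoured it, so these tests are given with that caution.

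Smpx was the single leading probe set called by the F test over the 5 Purkinje ages (adjusted p = 0.0340), where 28.7% of all probe sets were called. It was at 10.74, 10.84 and 10.75 at P14, at 10.18, 10.96, 10.68 and 10.85 at P21, at 10.72, 10.12, 9.47 and 9.44 at P28, at 9.43, 8.83, 9.55 and 9.81 at P35 and at 10.78, 10.33, 10.26 and 11.10 at P56. The 4 arrays of P35 lay below all arrays of P14, P21 and P56. The call was lost when any of 7 Purkinje arrays was left out and after quantile normalization, with adjusted p-values between 0.0501 and 0.108. Other leading probe sets were called under some alternatives. With Purkinje arrays alone, Stk17b (adjusted p = 0.0241) and Rasl11b (0.0477) were called. With the mean of the probe sets of a gene, Stk17b (0.0286) and Nrk (0.00961) were called. Cep76 was called without either Stellate/Basket P56 array (0.0361). With P35 in place of P56 as the last age, an alternative chosen after the data were seen, Smpx was called lower in Purkinje cells than at P14 (-1.37 ± 0.36, adjusted p = 0.0472).

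F2r had the widest range of age means of the 10 genes from P14 on, and its lowest mean was at P28. It was at 12.21, 12.07 and 12.14 at P14, at 13.11, 12.76, 12.81 and 12.55 at P21, at 11.36, 12.79, 10.26 and 9.61 at P28, at 12.92, 13.20, 13.02 and 13.35 at P35 and at 12.71, 12.90, 11.77 and 12.36 at P56. The second probe set of F2r, 1450852_s_at, was at 9.28, 10.79, 6.32 and 6.15 at P28 and at 11.22 to 11.89 at P35, so both placed replicates 3 and 4 lowest. The F test did not call the first (range of the age means 2.12, adjusted p = 0.126) and called the second (3.42, adjusted p = 0.00656). The first was called with Purkinje arrays alone (adjusted p = 0.00799), with array weights (0.000195), without the Purkinje P28 array of replicate 2 (0.0378) and without the Stellate/Basket P21 array of replicate 3 (0.0346), and the mean of both probe sets was called as well (0.0206). The spread of F2r within P28 (SD 1.39, n = 4) was larger than at any other Purkinje age, where the SD was between 0.07 and 0.50. On 1437308_s_at, 3 of the 4 P28 arrays, replicates 1, 3 and 4, lay below all Purkinje arrays of P14, P21, P35 and P56, and replicate 2, at 12.79, did not.

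**Figure D3:**
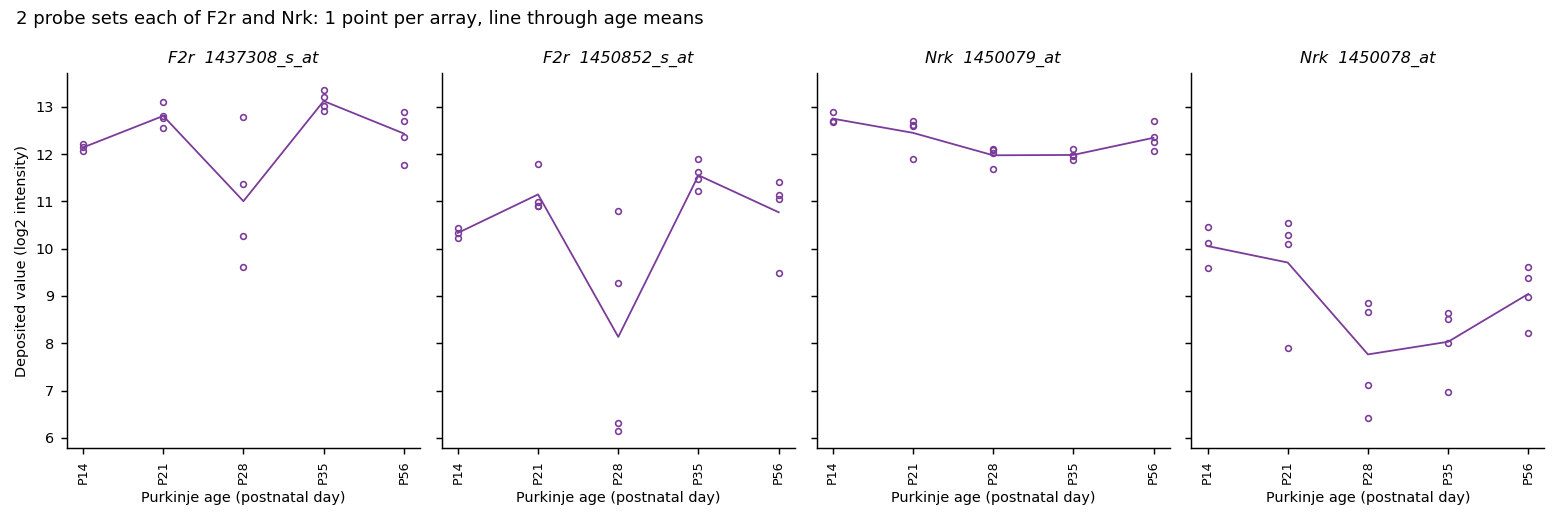
Deposited log2 intensity (vertical axis) in the Purkinje arrays of P14 to P56 for 2 probe sets each of F2r and Nrk, 1 point per array and a line through the age means. Both probe sets of F2r have their lowest arrays at P28, at 9.61 and 6.15. Nrk spans 0.77 between age means on its leading probe set and 2.29 on 1450078_at.

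In Stellate/Basket arrays the leading probe sets of all 10 genes were called higher at P56 than at P14, where 5.88% of all probe sets were called higher. The choice of the genes used these arrays and could have favoured a low Stellate/Basket level at P14. The p-values of these tests take no account of that choice and can overstate the evidence, so the calls are read as descriptions. The log2 differences ran from 1.86 ± 0.43 (SE) for Cep76 to 6.29 ± 0.37 for Tmem255a, with a median of 3.62 against 0.06 over all probe sets. All P56 arrays lay above all P14 arrays for the 10 genes and for 23.7% of all probe sets. Tmem255a was at 11.64 and 10.24 in the P56 arrays, against 4.73, 4.66, 4.62 and 4.58 in the P14 arrays (adjusted p = 2.94e-14). Nrk was at 11.20 and 10.04 in the P56 arrays, against 5.45, 6.13, 4.71 and 4.60 in the P14 arrays, a difference of 5.40 ± 0.62 (adjusted p = 3.69e-08). The P56 arrays are those that went against their label. Beside these differences, 6 of the 10 measured Purkinje markers were called higher and 0 lower (median 2.89), 7 of 9 interneuron markers lower (median -4.37), and 11 of 12 astrocyte and Bergmann glia markers higher (median 3.54). The part of other cells in these arrays was not tested.

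The 2 arrays of P56 were unlike each other. Replicate 1 was above every Stellate/Basket array of P14 to P35 for all 10 genes, and it lay within the range of the 19 Purkinje arrays for Klhl4, Rasl11b, Smpx, Tmem255a and F2r. Klhl4 was at 10.51 in replicate 1 and at 4.63 in replicate 3, and Rasl11b at 11.36 and 6.93. For Cep76 the pair was 8.49 and 5.67. Without replicate 1, which leaves 1 array at P56, the difference between P56 and P14 was 0.45 for Cep76, 0.37 for Klhl4, 0.70 for Rasl11b and 1.20 for F2r. In the other genes replicate 3 was at 8.39 for Stk17b, 7.26 for Smpx, 7.46 for Nell1, 9.05 for Plxdc1, 10.04 for Nrk and 10.24 for Tmem255a. The call of F2r was lost without P14 replicate 1 (2.15, adjusted p = 0.0745) and with Stellate/Basket arrays fitted alone. With array weights F2r (2.47, adjusted p = 0.372) and Cep76 (1.85, adjusted p = 0.107) were lost. With P35 as the last age 2 of the 10 genes were called higher, Nrk and Tmem255a, where 609 of 32918 probe sets were. Smpx was then at -0.06 and F2r at -1.61.

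**Figure D4:**
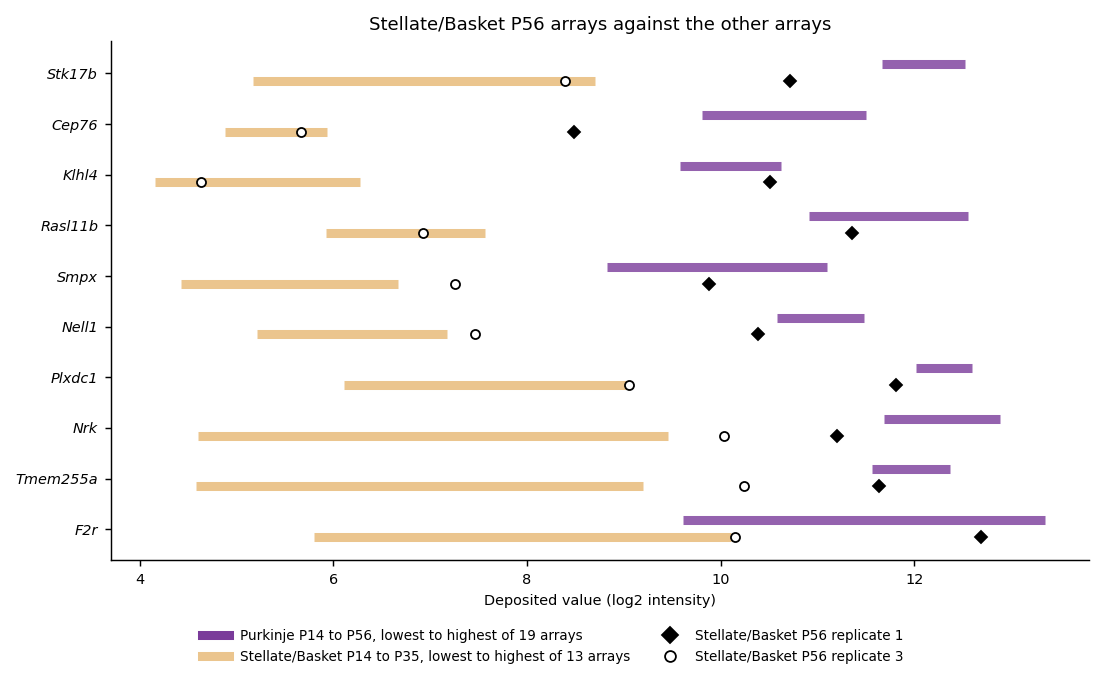
Deposited log2 intensity (horizontal axis) of the leading probe set of each gene: bars span the 19 Purkinje arrays of P14 to P56 (upper) and the 13 Stellate/Basket arrays of P14 to P35 (lower), and symbols give the 2 Stellate/Basket arrays of P56. Replicate 1 lies right of the Stellate/Basket bar in all 10 rows and replicate 3 within that bar for Stk17b, Cep76, Klhl4, Rasl11b and Plxdc1.

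Nrk and Tmem255a also differed among the earlier Stellate/Basket ages. Tmem255a was at 6.23, 6.82 and 8.27 at P21, at 9.20, 8.95, 8.90 and 9.14 at P28 and at 7.74 and 7.36 at P35. Nrk was at 5.89, 8.27 and 8.94 at P21, at 8.33, 8.38, 8.61 and 9.46 at P28 and at 7.54 and 8.03 at P35. Both were thus above their P14 arrays at P28 and P35 in every array, and so were Plxdc1 and Stk17b. Plxdc1 was at 6.11 to 6.71 at P14, 7.46 to 9.06 at P28 and 6.84 and 7.91 at P35. Stk17b was at 5.17 to 5.78 at P14, 6.58 to 8.70 at P28 and 5.94 and 6.85 at P35. The share of all probe sets with this pattern was not counted, so it cannot be called particular to these genes. Cep76, in contrast, stayed between 4.88 and 5.93 in all 13 arrays of P14 to P35, and Smpx between 4.43 and 5.15 in 12 of them, with a P28 array at 6.67. The Purkinje marker means in the same arrays were 8.43 to 9.69 at P21, 9.60 to 9.96 at P28 and 9.39 and 9.59 at P35.

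The change between P14 and P56 was tested for a difference between the cell types, as the Purkinje change minus the Stellate/Basket change. The leading probe sets of 8 genes were called lower, where 6.26% of all probe sets were, with values of -5.95 ± 0.49 (SE) for Tmem255a and -5.80 ± 0.82 for Nrk at one end and -2.43 ± 0.79 for Rasl11b at the other (adjusted p = 2.01e-10, 3.56e-06 and 0.0191). Cep76 (-1.20 ± 0.57, adjusted p = 0.101) and F2r (-2.17 ± 1.16, adjusted p = 0.147) did not pass. These values are set by the same P56 Stellate/Basket arrays. The choice of the genes could have favoured a low Stellate/Basket level at P14, so the same caution holds for these tests. Without replicate 1 of P56, which leaves 1 array there, the value was -0.49 for Klhl4 and -0.22 for Rasl11b. Without replicate 3 it was -2.61 for Cep76. With P35 as the last age Nrk and Tmem255a were the 2 genes called, where 882 of 32918 probe sets were called in either direction.

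The probe sets of a gene did not all report the same pattern. Of the 21 tested, 17 separated the Purkinje arrays of P14 to P56 from those of P3 and P7, and 17 from the Stellate/Basket arrays of P14 to P35. Plxdc1 had a leading difference of 4.37 ± 0.19 (SE) between the cell types and one of -0.07 ± 0.05 on 1442610_at, which stayed between 5.37 and 6.05 in all 40 arrays. Klhl4 was measured by 1439078_at alone, as 1445318_at stayed between 4.20 and 5.08 and did not pass the filter. For Nell1 the differences were 4.57 ± 0.19 and, on 1447076_at, 0.49 ± 0.06, and on that dim probe set all values lay between 4.33 and 5.66. Rasl11b and Smpx have a single probe set each, so nothing in the array checks them. With the mean of all probe sets of a gene in place of the leading one, the difference between the cell types was 2.15 for Plxdc1, 2.47 for Klhl4, 2.53 for Nell1, 2.78 for Nrk and 3.19 for Cep76.

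Where several probe sets were bright they agreed in direction and differed in size. Stk17b differed by 5.07 ± 0.19, 4.18 ± 0.11 and 1.56 ± 0.16 on its 3 probe sets, and Cep76 by 4.96 ± 0.18 and 1.42 ± 0.10. The 4 probe sets of Tmem255a gave 4.26 ± 0.19, 4.10 ± 0.15, 3.91 ± 0.20 and 1.62 ± 0.13, and the 2 of F2r gave 3.60 ± 0.36 and 3.56 ± 0.38. Over all 40 arrays the Pearson correlation between probe sets of Stk17b ran from 0.858 to 0.971 and between those of Tmem255a from 0.850 to 0.992. These values mostly follow the split between arrays with a high and a low level. Over the 19 Purkinje arrays from P14 on, the correlation was 0.980 for F2r, 0.926 between Nrk 1450079_at and 1450078_at, 0.962 between Tmem255a 1439006_x_at and 1456596_at, but 0.037 for the 2 probe sets of Cep76. The points are arrays, and 2 probe sets of a gene share the RNA and the normalization of each. The low P28 arrays of F2r thus appeared on both of its probe sets, while the 2 of Cep76 did not rank these 19 arrays alike.

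**Figure D5:**
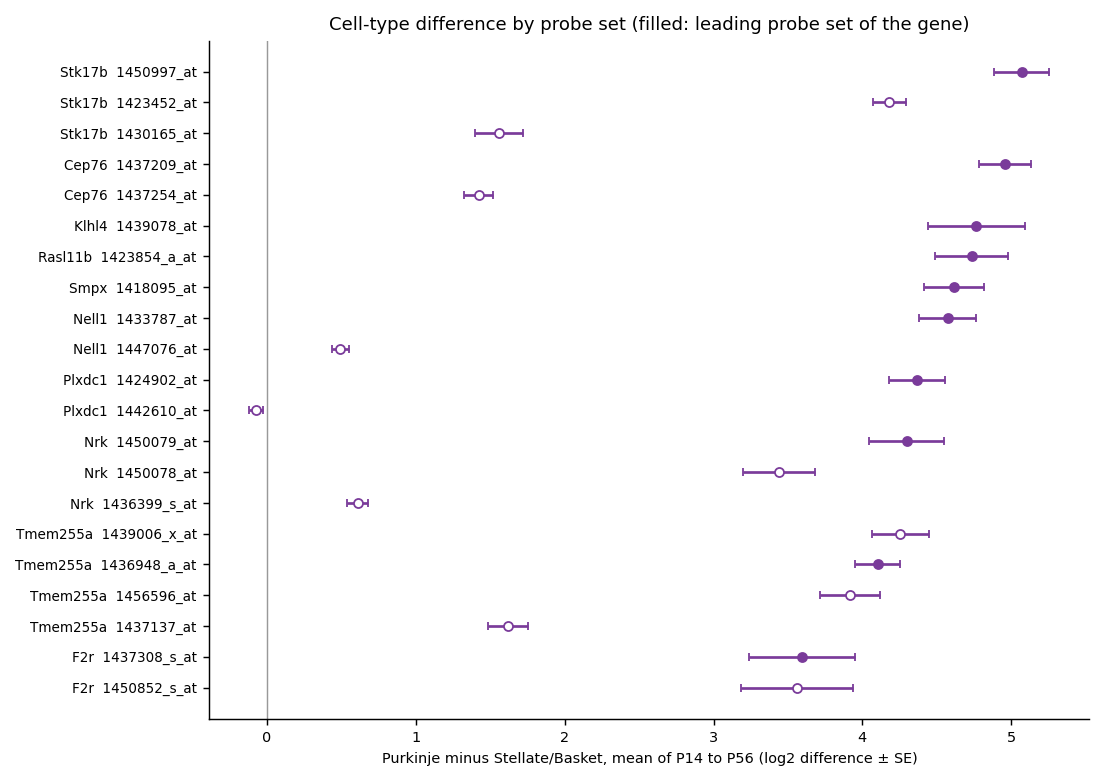
Log2 difference between Purkinje and Stellate/Basket arrays averaged over P14 to P56 (horizontal axis, with SE) for the 21 tested probe sets, filled for the leading probe set of each gene. The leading probe sets lie between 3.60 and 5.07, and 3 of the other probe sets, of Nell1, Plxdc1 and Nrk, lie below 1.

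The age profile after P14 depended on the probe set for Tmem255a, Nrk and Stk17b. Tmem255a differed by 0.34 ± 0.33 (SE) between P14 and P56 on its leading probe set (adjusted p = 0.552), with arrays at 11.94 to 12.07 at P56, against 11.56 to 11.76 at P14, but rose by 1.12 ± 0.29 on 1437137_at (adjusted p = 0.00889) and by 1.31 ± 0.43 on 1456596_at (adjusted p = 0.0419). On 1456596_at the arrays were at 10.45, 9.78, 9.81 and 10.49 at P56, against 8.83, 9.16 and 8.48 at P14, with no overlap. Stk17b rose by 1.01 ± 0.34 on 1430165_at (adjusted p = 0.0472) and was within 0.16 of no change on its other 2. Nrk 1450078_at was at 9.60 to 10.46 at P14, at 7.90, 10.54, 10.29 and 10.10 at P21 and at 6.43, 7.11, 8.66 and 8.86 at P28, and the F test over the 5 ages called it (range 2.29, adjusted p = 0.00246). The leading probe set of Nrk moved the same way by less, 0.77, and was not called (adjusted p = 0.689).

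Of the 10 genes, 4 (40%) lie on the X chromosome, against 570 of the 17334 tested genes with a known chromosome (3.29%) and 38 of the 1110 such genes called higher in Purkinje cells (3.42%). Xist, the RNA of the inactive X chromosome in females, was not uniform although all samples are labelled male. On 1436936_s_at it was at 6.47, 6.55 and 6.59 in the Purkinje P14 arrays, against 12.77 to 12.88 in the Stellate/Basket P14 arrays, and it was between 6.38 and 12.75 within the Purkinje arrays of P3. With the Xist level as a covariate the difference between the cell types was 4.40 ± 0.43 (SE) for Klhl4, 4.52 ± 0.27 for Smpx, 4.15 ± 0.34 for Nrk and 3.89 ± 0.19 for Tmem255a, against 4.77, 4.62, 4.30 and 4.10 without it. Among the genes on other chromosomes it was 3.11 ± 0.46 for F2r, against 3.60 without the covariate, a larger move than in these 4. It was 5.08 for Stk17b, 4.94 for Cep76, 4.72 for Rasl11b, 4.67 for Nell1 and 4.43 for Plxdc1, against 5.07, 4.96, 4.73, 4.57 and 4.37. With the covariate Nrk and Tmem255a were still called between P3 and P7.

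The genes most like each of the 10, by Pearson correlation over the 12 group means, were in 4 of the 10 cases another of the 10. Apart from F2r, which was also high in Purkinje cells at P3 and P7, the 10 broadly share the same high and low groups. Plxdc1 and Stk17b were each other's nearest gene (r = 0.997). Tmem255a was nearest to Nrk (0.982), followed by Slc1a6, the Purkinje cell glutamate transporter (0.981), and Calb1, a calcium buffer (0.977), and the nearest gene to Tmem255a was Kitl, the ligand of Kit (0.982). Rspo3, a secreted activator of Wnt signalling, was nearest to both Cep76 (0.996) and Rasl11b (0.997), and Kalrn, a protein of dendritic spines, to Klhl4 (0.996). Col18a1, the collagen that yields endostatin, was nearest to Nell1 (0.997), and Klhl4 to Smpx (0.982). F2r had the least similar neighbours, led by the synaptic vesicle priming factor Unc13b (0.960).

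Genes related to the 10 were read in the same comparison of Purkinje with Stellate/Basket cells, in which 5.58% of all probe sets were called higher and 4.7% lower. The lists hold 1 probe set per gene. With 1 probe set for each of the 17485 genes, 2009 were called, and 1113 of these were higher. In the lists around the kinases, Cep76, Klhl4 and Rasl11b, 1 of 52 genes was called higher and 5 were called lower. Of the 5 kinases listed with Stk17b, the death-associated kinases Dapk1, Dapk2 and Dapk3 and the calmodulin-dependent kinases Camk1 and Camk4, none was called higher, and Dapk1 was lower (-1.44 ± 0.11, SE). None of the 5 measured Ste20 kinases near Nrk and none of the 13 genes of centriole length around Cep76 was called in either direction. Among 16 kelch-like genes and partners, Klhl7 was higher (1.56 ± 0.13), and Klhl13 (-2.95 ± 0.16) and Klhl5 (-1.16 ± 0.16) were lower. Of 13 Ras-like GTPases, none was higher, and Diras2 (-1.26 ± 0.17) and Rasl10b (-1.12 ± 0.11) were lower. The medians of these 5 lists lay between -0.17 and 0.12, against 0.01 over all probe sets.

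In the other 3 lists, 4 of 28 were called higher and 4 lower, beside the same background of 5.58% and 4.7%. Of 17 genes of thrombin signalling around F2r, Plcb3, a phospholipase C downstream of Gq-coupled receptors, was higher (2.46 ± 0.12), and Plcb1 (-1.85 ± 0.09), Gna13, a G protein alpha subunit (-1.50 ± 0.11), and Serpini1, a protease inhibitor of neurons (-1.42 ± 0.19), were lower. Of 8 genes around Nell1, its paralogue Nell2 (1.42 ± 0.18) and the contactin-associated protein Cntnap2 (2.65 ± 0.28) were higher. Plxdc2, the paralogue of Plxdc1, was higher (1.99 ± 0.24), and Nid1, a basement membrane protein, was lower (-1.67 ± 0.24) among the 3 measured in its list. The medians of these 3 lists were 0.04, 0.22 and 0.09. Within Purkinje cells Nell2 was higher at P14 than at P7 by 2.58 ± 0.42 and then lower at P56 than at P14 (-2.41 ± 0.39), whereas Nell1 was at 10.84 to 11.24 in the P56 arrays, against 10.86 to 11.25 in the P14 arrays.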

How the data were processed

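Gene expression was measured in 42 deposited columns. The authors deposited 1 log2 intensity per probe set and column. GCRMA and R 2.9.1 are listed, without role or order, in the submitters' processing notes. Of the Stellate/Basket columns, P35 replicate 3 and P56 replicate 2 equal the mean of 2 other columns of their group in every probe set within 1e-06, and were left out, which leaves 40 arrays. The number of arrays limits the precision. Of 45101 probe sets, 34958 have 1 gene symbol, 932 several and 9211 none; tests used those with 1 symbol that exceeded log2 5 in 3 arrays or more. limma 3.58.1 in R 4.3.3 fitted 1 mean for each of the 12 groups, with moderated variances and Benjamini-Hochberg adjustment over 32918 probe sets. Groups of 2 arrays are thereby assumed to vary like the others. A probe set was called at an adjusted p under 0.05 and an absolute log2 difference of at least 1, and in the F test at the adjusted p alone. The procedure was tested on simulated data. Genes, gene lists and tests were chosen with earlier results of these data known.

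All members and probe sets are named. Also named are the 3 genes most like each member over the 12 group means, or the leading ones of these, up to 3 called genes of each of the 8 lists of related genes, and Gad1, Pcp2, Calb1, Kit, Gja1 and Xist as checks. Gad1 was between 11.47 and 12.91 in all 40 arrays. Promoter windows and gene positions are RefSeq's, build GRCm38.p6. Python 3.11.15 with matplotlib 3.10.9 drew the figures. Alternatives covered the filter, the summary of probe sets, normalization, variance model, array weights, replicate number as a block, the arrays in the fit, the averaged columns, Xist as a covariate, and leaving out each array. P35 as the last age was added after the data were seen.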

Additional observations from a re-analysis of the deposited data

Results flagged for a closer look

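In 132 groups of 4 arrays, 1 for each member probe set and group, 8 arrays lay far from the other 3 of their group, and chance alone gives about 1 in 20 such groups. In the Purkinje P21 arrays, replicate 1 was the low array for both Nrk probe sets (11.89 on 1450079_at and 7.90 on 1450078_at) and the high array for F2r 1450852_s_at (11.79), and the low array for Tmem255a 1436948_a_at was at 11.89. In the Purkinje P28 arrays, Rasl11b had a low array at 10.92 and the dim Klhl4 probe set 1445318_at a high array at 4.56. In Stellate/Basket arrays, Nell1 had a low array at 5.21 at P14 and F2r 1437308_s_at one at 7.37 at P28.

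The change between P14 and P56, Purkinje minus Stellate/Basket, differed between the cell types by the test of that difference in limma for 8 genes, each lower. The values were -4.07 for Stk17b, -3.43 for Klhl4, -2.43 for Rasl11b, -3.87 for Smpx, -3.58 for Nell1, -4.29 for Plxdc1, -5.80 for Nrk and -5.95 for Tmem255a. They rest on the P56 Stellate/Basket arrays, whose interneuron markers were at 6.71 and 6.98, against 10.10 to 10.67 at P14. The choice of the genes, which used arrays from P14 on, could also have favoured such values. The part of other cells in these changes was not tested.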

How the results depend on the processing

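The number of probe sets called moved with the features tested. With 1 probe set per gene, the counts were 9 for P3 to P7, 296 for Purkinje P14 to P56, 3275 for Stellate/Basket P14 to P56, 3507 for the difference between these changes, 2009 between the cell types, 2228 for P7 to P14 and 4993 for the F test. With the mean of the probe sets of a gene they were 5, 137, 2256, 2584, 1332, 1602 and 5479. The main counts were 22, 578, 5493, 5799, 3384, 3698 and 9443. Fewer features were tested in both settings. With array weights the counts were 154 for P3 to P7, 973 for Purkinje P14 to P56, 2549 for Stellate/Basket P14 to P56, 3404 for the difference and 20342 for the F test. With Purkinje arrays alone, P3 to P7 gave 52. With P35 as the last age, added after the data were seen, Purkinje gave 233, Stellate/Basket 1851, the difference 882 and the F test 2902. Leaving out 1 array gave 7 (without Purkinje P3 replicate 2) to 96 (without Purkinje P7 replicate 1) for P3 to P7, 340 (without Purkinje P14 replicate 3) to 878 (without Purkinje P56 replicate 2) for Purkinje P14 to P56, and 6155 (without Purkinje P56 replicate 4) to 11160 (without Stellate/Basket P56 replicate 1) for the F test. The cause of these moves was not tested. Higher calls were 80.4% of those in Purkinje P14 to P56, 90.6% with arrays centred on their median and 20.2% with P35 as the last age.

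Of the 10 genes, 2 reversed sign in Stellate/Basket cells with P35 as the last age, Smpx at -0.0605 and F2r at -1.61. The onset at P14 held for 9 to 10 genes under the alternatives for which it was computed: the mean of the probe sets, quantile normalization, median centring, all 42 columns and each left-out array. With the mean of their probe sets the P3 to P7 difference was 1.18 for Nrk and 0.70 for Tmem255a, and neither was called. With a replicate block the counts were 23, 514, 5396, 5444, 3370, 3671 and 9069, and no call of a leading probe set changed. The main fit did not pair arrays by replicate number. Same-numbered P3 and P7 arrays had correlations of 0.05, 0.03 and 0.11 between their deviations from the group means. Differently numbered ones had correlations of -0.07 to 0.01. Between P7 and P14 the values were 0.0812, 0.000632 and -0.125 for the same number and -0.109 to 0.159 for different ones. With so few arrays per group, these values cannot decide whether arrays of the same number belong together. No detection calls were used, so probe sets near log2 5 carry little information on fold size.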
